A study of Mus musculus with 6 samples.

Results

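The myosin heavy and light chain isoforms of the heart were described across mouse embryonic ventricles labelled as lacking, or not lacking, a pair of nuclear receptors. The members were 10 genes, Myh6, Myh7, Myh7b, Myh3, Myh8, Myl1, Myl2, Myl3, Myl4 and Myl7, chosen by symbol as the cardiac, atrial, embryonic and perinatal chains, out of 19245 gene symbols in the table. They stood in 12 transcripts of that table, and all 10 passed the filter on low counts. RNA was taken from both ventricles of C57BL/6 embryos at embryonic day 17.5 and sequenced in 6 libraries, each a pool of 2 hearts. The 3 libraries labelled KO came from embryos with floxed alleles of Esrra and Esrrg, the genes of the estrogen-related receptors alpha and gamma, together with a Cre recombinase under the Nkx2-5 promoter. The 3 libraries labelled WT came from Cre-negative embryos of the floxed colony, so the control is a floxed one without Cre, and an effect of Cre itself and of the deletions cannot be told apart. Nkx2-5 is active in cardiac progenitors and their cardiomyocyte progeny, and other cells of the ventricle, such as fibroblasts, contribute RNA to the same libraries.

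Cardiac myosin is a hexamer in which each heavy chain carries an essential and a regulatory light chain, and the isoform in each position sets how fast the motor cycles and how much tension it holds. In the mouse the beta heavy chain Myh7 prevails in the fetal ventricle and gives way after birth to the faster alpha chain Myh6, which the atria use throughout. Myl2 and Myl3 are the regulatory and essential light chains of the ventricle. Myl7 and Myl4 are their atrial counterparts, which are also made in the early ventricle and recede there during development. Myh3, Myh8 and Myl1 belong to embryonic, perinatal and fast skeletal muscle, and Myh7b is an ancient slow heavy chain.

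The cardiac heavy chain genes also carry microRNAs within their introns, and these are shown because the same primary transcripts yield both products. The microRNA positions were those of RefSeq on GRCm38.p6, and the gene bounds and exons were those of the GENCODE M21 annotation. By these, miR-208a lies inside Myh6, miR-208b inside Myh7 and miR-499 inside Myh7b, each outside the exons of the coding transcripts. The mature strands are given 5′ to 3′ with the seed, bases 2 to 8, in capitals.
mmu-miR-208a-3p: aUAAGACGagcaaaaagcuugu
mmu-miR-208b-3p: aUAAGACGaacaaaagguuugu
mmu-miR-499-5p: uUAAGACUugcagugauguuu
They lie on the strand of their hosts at chr14:54949072-54949093, chr14:54975710-54975731 and chr2:155622893-155622913 of GRCm38.p6. The miR-208a and miR-208b strands share the seed UAAGACG, and miR-499-5p has the seed UAAGACU. The libraries do not measure mature microRNAs. The measured hosts, Myh6, Myh7 and Myh7b, were all lower in the libraries labelled KO, as given below.

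Promoter windows of all 10 members were found in the RefSeq table of GRCm38.p6, in 12 windows. The upstream stretches of Myh7b and Myl7 are printed because they belong to the member that fell most and to the atrial regulatory chain that rose, and because both windows begin at the start of the counted transcript. Each holds the 250 bases before the start site, 5′ to 3′ on the gene's strand, and capitals mark the estrogen-related receptor motif TNAAGGTCA, searched on both strands.
Myh7b: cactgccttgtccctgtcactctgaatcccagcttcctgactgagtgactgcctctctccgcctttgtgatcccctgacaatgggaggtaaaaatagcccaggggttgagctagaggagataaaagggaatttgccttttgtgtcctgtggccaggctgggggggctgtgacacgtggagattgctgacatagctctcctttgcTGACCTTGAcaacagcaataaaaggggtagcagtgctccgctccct
Myl7: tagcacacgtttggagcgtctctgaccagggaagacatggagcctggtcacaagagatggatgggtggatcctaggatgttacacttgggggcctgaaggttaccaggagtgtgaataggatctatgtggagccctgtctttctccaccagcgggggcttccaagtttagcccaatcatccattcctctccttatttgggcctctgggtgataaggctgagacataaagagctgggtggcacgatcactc
These stretches are chr2:155610993-155611242 on the plus strand and chr11:5898783-5899032 on the minus strand. In Myh7b the motif stood on the opposite strand at positions -46 to -38 from the start site. Among the members' windows of 300 bases, this was the sole match, and 421 of 32851 windows of the whole table (1.28%) held one. The muscle CAT motif CATTCC, a site known to bind TEAD factors, was matched in the windows of Myh6, Myh7, Myl1, Myl3 and Myl7, and 14.7% of all windows held it. A MEF2 motif, held by 3.69% of windows, had no match in a member's window. A match here is a run of letters, not a shown binding site, and the absence of one says only that the letters are not in the window. The Myl2 windows of the table begin 8227 and 7762 bases from the start of the counted transcript, and the Myl1 window is that of the longer transcript.

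Libraries held 14703820 to 32663845 estimated counts over genes in the labelled KO group and 12807218 to 17995718 in the WT group, so that 3 counts, the limit that a count of 0 allows, stand for 0.0918 to 0.234 CPM, the count scaled to a common library size. As a check of the labels, Esrra was at 42.9 ± 1.63 CPM in the libraries labelled KO and 75.8 ± 6.56 CPM in WT (SD, n = 3 each), with a log2 fold change of -0.83 and an adjusted p of 3.67e-07. Esrrg went against its label, at 115.6 ± 5.29 CPM in labelled KO and 81.7 ± 2.07 CPM in WT, with a log2 fold change of 0.50 and an adjusted p of 2.22e-06 (edgeR's quasi-likelihood test, Benjamini-Hochberg adjustment). Since the counts run over whole transcripts, undeleted exons included, they cannot show the loss of the floxed exons, and KO below stands for the libraries that carry this label. The gene Nkx2-5 itself was at 49.9, 53.4 and 57.8 CPM in KO, against 74.2, 66.5 and 66.7 CPM in WT, with a log2 fold change of -0.37 and an adjusted p of 0.000446 by edgeR, or 0.0620 with the Y-linked level as a covariate. The groups also differ in the sex of the pooled embryos. Summed Y-linked genes stood at 323.9, 145.6 and 167.0 CPM of the raw total in KO replicates 1, 2 and 3, against 0.0567, 112.2 and 0.167 CPM in WT replicates 1, 2 and 3. Xist was at 0.949 CPM in KO replicate 1, at 1190 and 1263 CPM in the other KO libraries and at 1170 to 2372 CPM in WT. Calls on members and named genes that were lost in either setting bearing on this difference are given with it. The calls of Mhrt, Tagln, Cnn1, Des and Myocd were not looked up in those settings.

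All 10 isoform genes changed, 5 of them higher and 5 lower, in a comparison where 44.4% of the 14290 genes tested were called (22.4% higher and 22.0% lower), by edgeR with adjusted p under 0.05. With the Y-linked level as a covariate, or without the libraries of a single sex (KO replicate 1 and WT replicates 1 and 3), 2 members were called higher and 5 lower, with Myh3, Myh8 and Myl4 no longer called, and 3404 or 3645 genes were called in all. The genes that rose in the reported fit were Myl1, Myl7, Myh3, Myh8 and Myl4, and those that fell were Myh7b, Myl2, Myl3, Myh7 and Myh6. The groups did not overlap in any of the 10, against 53.7% of all genes tested. The 4 changes of at least 2-fold were rises of Myl1, Myl7 and Myh3 and a fall of Myh7b, against 5.85% of all genes (2.65% higher and 3.21% lower), with Myh3 among those no longer called in those settings. The median log2 fold change of the members was -0.08 and that of all genes 0.01. With each transcript tested in its own right, the 11 that could be tested kept the direction of their gene. The longer Myl1 transcript was too low to test. The authors' deposited table lists 11 of the 12 transcripts at a false discovery rate under 0.05. The share of all its transcripts at that rate was not worked out, so this count has no background beside it.

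**Figure D1:**
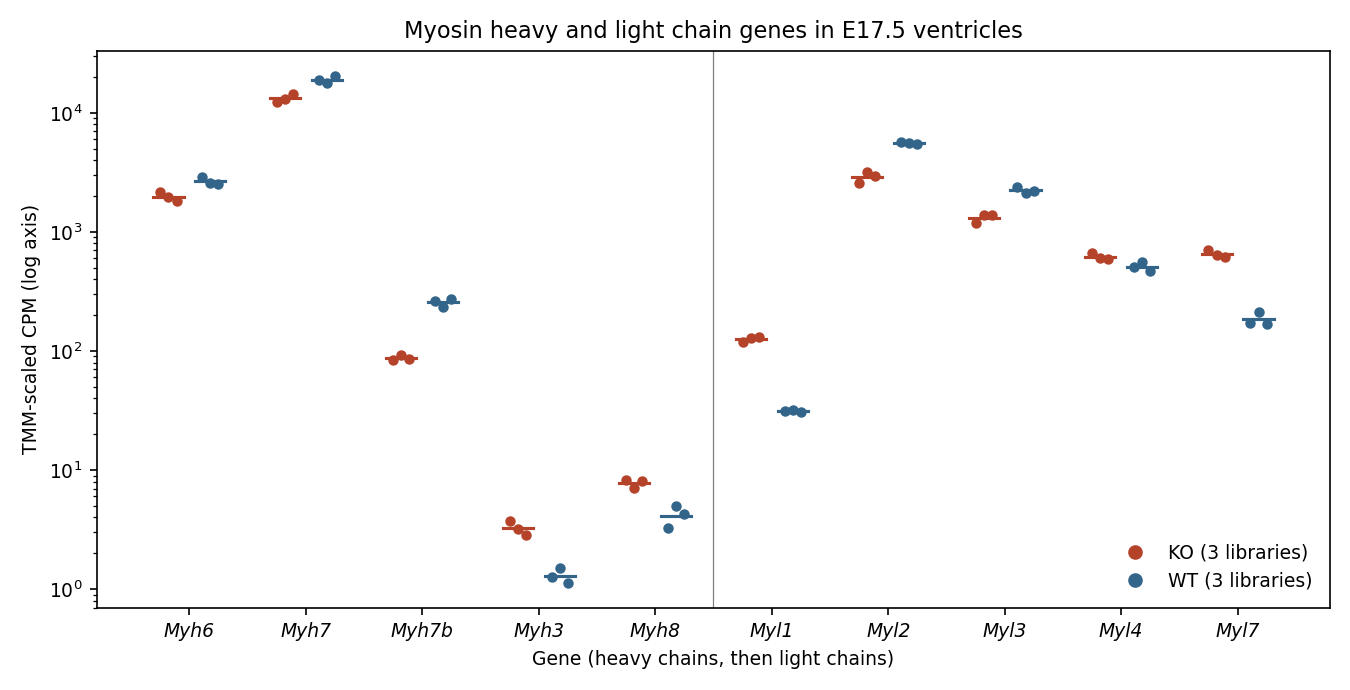
TMM-scaled CPM (log axis) of each myosin chain gene in each library, heavy chains on the left and light chains on the right, with KO points left of WT points and the group mean as a bar. For every gene the KO points lie wholly above or wholly below the WT points. Myl7 sits at 620.2 to 697.9 CPM in KO and 168.2 to 212.0 CPM in WT, and Myh7b at 83.4 to 92.7 CPM in KO and 233.0 to 272.9 CPM in WT.

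**Figure D2:**
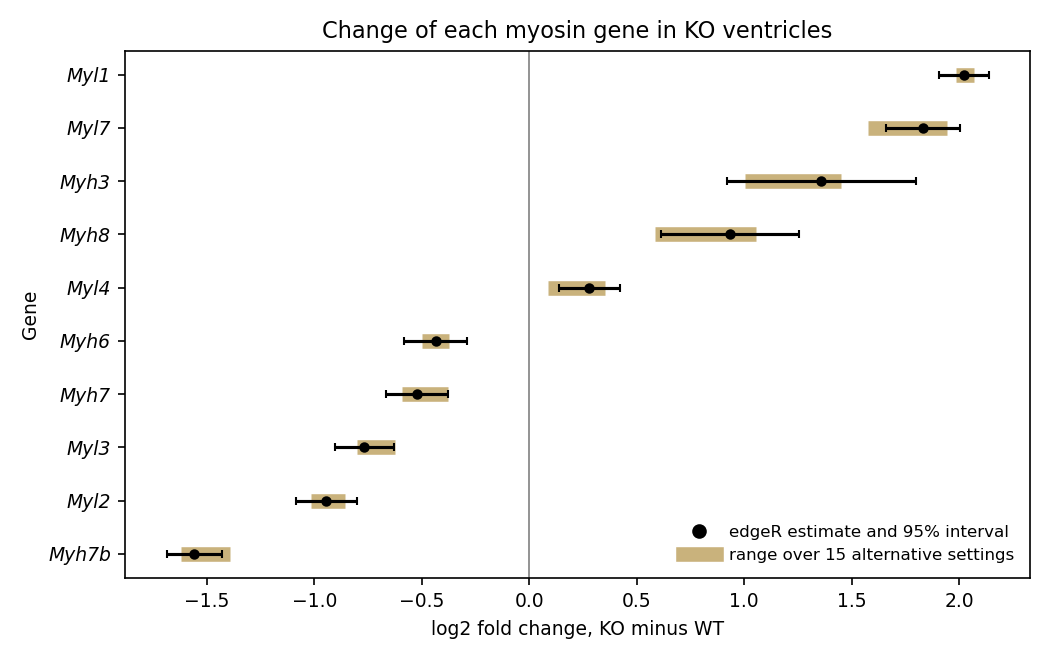
Log2 fold change, KO minus WT, of the 10 chain genes as points with 95% confidence intervals from edgeR, over tan bars for the range across 15 alternative settings. They run from -1.56 for Myh7b to 2.02 for Myl1, and no interval reaches 0.

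The order of the isoforms by level per length was nearly kept. In the labelled KO libraries it ran, by mean RPKM, the count per transcript length and library total, Myl2 at 1738, Myh7 at 867.3, Myl3 at 582.4, Myl7 at 441.6, Myl4 at 278.4, Myh6 at 129.9, Myl1 at 61.7, Myh7b at 5.64, Myh8 at 0.503 and Myh3 at 0.217. In WT it ran Myl2 at 3019, Myh7 at 1122, Myl3 at 893.2, Myl4 at 206.5, Myh6 at 157.6, Myl7 at 111.8, Myh7b at 14.9, Myl1 at 13.7, Myh8 at 0.243 and Myh3 at 0.0778. Myl7 thus stood above Myl4 and Myh6 in KO and below both in WT, and Myl1 stood above Myh7b in KO only. Neighbours in either order did not overlap between their libraries, except Myh7b and Myl1 in WT, at 13.8 to 16.2 and 13.3 to 14.2 RPKM.

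Among the sarcomeric heavy chains, the beta chain Myh7 held most of the pool and fell. Myh7 (chromosome 14, 54970688 to 54994549 of mm10, minus strand) was at 12231, 12956 and 14445 CPM in KO, against 18777, 17800 and 20335 CPM in WT. Every KO library lay below every WT library. The log2 fold change was -0.52 (SE 0.0659), a level 1.44 times higher in WT, with an adjusted p of 3.27e-05 by edgeR. Myh7 alone took up 1.34% ± 0.101 of all gene counts in KO and 1.86% ± 0.112 in WT (SD, n = 3 each).

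The alpha chain Myh6 lies beside Myh7 on the same strand (chromosome 14, 54941921 to 54966607) and fell in the same libraries. It was at 2142, 1946 and 1817 CPM in KO, against 2888, 2587 and 2514 CPM in WT. The groups did not overlap, and KO replicate 1 was the highest of its group. The log2 fold change was -0.44 (SE 0.0672), with an adjusted p of 0.000176 by edgeR. Both annotated Myh6 transcripts fell, by 0.52 and by 0.38 on the log2 scale, with adjusted p of 0.00448 and 0.00848 by edgeR on transcripts.

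The balance of alpha to beta chain showed no difference beyond its spread. The Myh6 to Myh7 ratio of RPKM was 0.175, 0.151 and 0.126 in KO, against 0.154, 0.146 and 0.124 in WT. The groups overlap, with KO replicate 1 above every WT library. The log2 difference was 0.09, with a 95% interval of -0.38 to 0.55 and an exact two-sided permutation p of 0.7, and it turned to -0.03 without KO replicate 1, to 0.00 without WT replicate 3, and to -0.08 without the libraries of a single sex. The interval leaves room for a difference of either sign. Myh6 and Myh7 share 1373 of their 50-base words in the reference transcripts, 22.5% and 22.6% of each, so reads in those stretches could be split between them by the authors' counting. Annotated antisense genes overlap their exons, among them Mhrt over 463 exonic bases of Myh7, and whether counting used strand is not given in the sources used here.

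**Figure D3:**
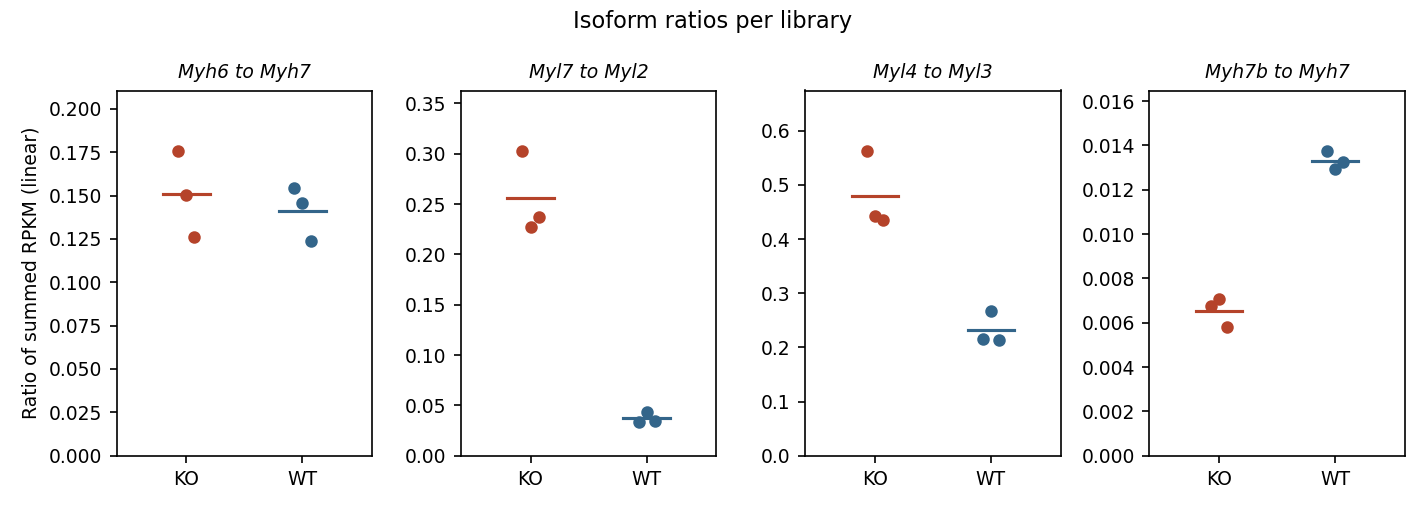
Ratios of summed RPKM within each library on linear axes that start at 0, KO left of WT, with the group mean as a bar. The Myh6 to Myh7 points overlap, at 0.126 to 0.175 in KO and 0.124 to 0.154 in WT, with KO replicate 1 above every WT library, whereas those of Myl7 to Myl2, Myl4 to Myl3 and Myh7b to Myh7 do not overlap.

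Myh7b was the member with the greatest fall. It lies on chromosome 2 (155611243 to 155634307, plus strand) and was at 83.4, 92.7 and 85.2 CPM in KO, against 261.2, 233.0 and 272.9 CPM in WT. The KO libraries lay close together and far below WT. With a log2 fold change of -1.56 (SE 0.0594), its level was 2.95 times higher in WT, at an adjusted p of 5.19e-10 by edgeR. None of its 50-base words occurs in another gene's transcript, and its overlap with the exons of Trpc4ap on the opposite strand is 37 bases.

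Myh7b fell further than the beta chain. The Myh7b to Myh7 ratio was 0.00674, 0.00706 and 0.00582 in KO, against 0.0137, 0.0129 and 0.0133 in WT. No KO library reached the WT range. The log2 difference was -1.03, with a 95% interval of -1.27 to -0.79, and the exact permutation p was 0.1, the smallest that 3 against 3 can give. Myh7b made up 0.564% ± 0.0481 of heavy chain RPKM in KO and 1.15% ± 0.0322 in WT (SD, n = 3 each).

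Both ventricular light chains fell. The regulatory chain Myl2 (chromosome 5, 122100951 to 122106854, plus strand) was at 2590, 3184 and 2930 CPM in KO, against 5730, 5532 and 5484 CPM in WT. The WT libraries were close together and all far above KO. The log2 fold change was -0.94 (SE 0.0662), a level 1.92 times higher in WT, with an adjusted p of 1.44e-07 by edgeR.

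The essential chain Myl3 (chromosome 9, 110763681 to 110769794, plus strand), which is also made in slow skeletal muscle, was at 1198, 1377 and 1376 CPM in KO, against 2380, 2126 and 2220 CPM in WT. Again no KO library came near the WT range. Myl3 changed by a log2 fold of -0.77 (SE 0.0626), with an adjusted p of 6.24e-07 by edgeR. Neither Myl2 nor Myl3 shares a 50-base word with another gene.

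The atrial regulatory chain Myl7 rose. Myl7 (chromosome 11, 5896637 to 5898782, minus strand) was at 697.9, 643.6 and 620.2 CPM in KO, against 171.9, 212.0 and 168.2 CPM in WT. Every KO library lay far above every WT library. Its log2 fold change was 1.83 (SE 0.0786), a level 3.56 times higher in KO, with an adjusted p of 1.48e-09 by edgeR. Without the libraries of a single sex it was 1.58 and remained called.

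The atrial essential chain Myl4 (chromosome 11, 104550663 to 104587219, plus strand) showed the least change of the 10. It was at 662.0, 598.6 and 589.9 CPM in KO, against 502.3, 559.0 and 465.7 CPM in WT. The groups were parted by a narrow gap, between KO replicate 3 and WT replicate 2. Its log2 fold change was 0.28 (SE 0.0655), with an adjusted p of 0.00391 by edgeR. This call was lost with the Y-linked level as a covariate, at a log2 fold change of 0.10 and an adjusted p of 0.401, and without the libraries of a single sex, at 0.09 and an adjusted p of 0.293.

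Set against their ventricular partners, both atrial chains took a larger part of the light chain pool in KO. The Myl7 to Myl2 ratio was 0.302, 0.227 and 0.238 in KO, against 0.0337, 0.0430 and 0.0344 in WT. The groups lie far apart, with KO replicate 1 the highest. The ratio was 6.89 times higher in KO, a log2 difference of 2.78 with a 95% interval of 2.31 to 3.26 and an exact permutation p of 0.1, the smallest possible. The Myl4 to Myl3 ratio was 0.562, 0.442 and 0.436 in KO, against 0.215, 0.267 and 0.213 in WT. It too did not overlap, and was 2.07 times higher in KO, with a log2 difference of 1.05, a 95% interval of 0.60 to 1.49 and an exact permutation p of 0.1. Without the libraries of a single sex, the log2 differences were 2.43 for Myl7 to Myl2 and 0.71 for Myl4 to Myl3. In that setting the log2 fold change was 0.09 for Myl4 and -0.63 for Myl3, so the second ratio rests mainly on Myl3. Over the 6 ratios and sums compared, a p of 0.1 adjusts to 0.12, so none passes a threshold of 0.05 in this design.

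As shares, Myl7 was 20.3% ± 2.55 of regulatory light chain RPKM in KO and 3.57% ± 0.481 in WT (SD, n = 3 each), with Myl2 holding the rest. Of the essential chains, Myl3 held 63.1% ± 2.87 in KO and 80.2% ± 2.02 in WT, and Myl4 held 30.2% ± 2.99 in KO and 18.6% ± 1.97 in WT. In bulk tissue, fewer cells of a type and less RNA per cell cannot be told apart.

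**Figure D4:**
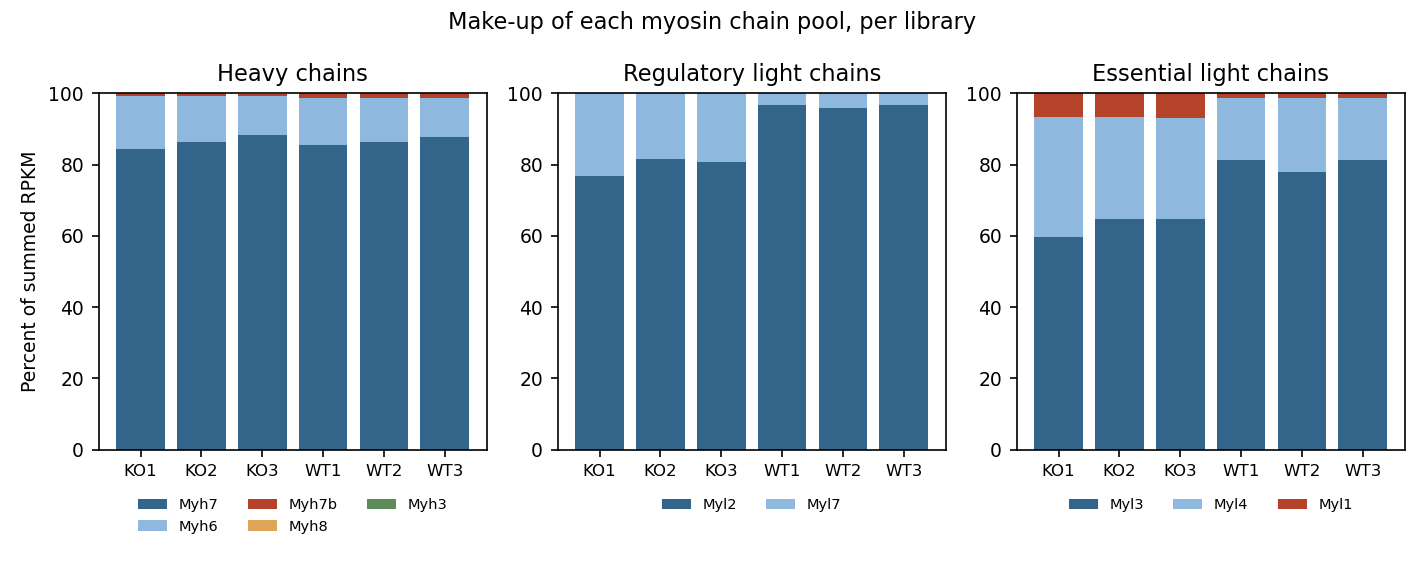
Percent of summed RPKM held by each isoform within the heavy chain, regulatory light chain and essential light chain pools, for each library, KO left of WT. Myl7 takes 18.5% to 23.2% of the regulatory pool in KO and 3.26% to 4.12% in WT, while Myh7 takes 84.5% to 88.3% of the heavy chain pool in KO and 85.6% to 87.9% in WT. Myh3 and Myh8 are too small to be seen.

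The fast light chain Myl1 rose most among the members. Myl1 (chromosome 1, minus strand) was at 119.5, 129.1 and 132.0 CPM in KO, against 31.2, 31.9 and 30.5 CPM in WT. Replicates were tight and the groups far apart. The log2 fold change was 2.02 (SE 0.0533), a level 4.06 times higher in KO, with an adjusted p of 6.85e-11 by edgeR. Nearly all of its counts fell on the shorter transcript, which starts within the gene (66924296 to 66935366) and encodes the form known as MLC3f, with 3981, 1922 and 2605 estimated counts in KO, against 539.0, 406.0 and 537.0 in WT. The longer transcript, of the form known as MLC1f, had 27.1, 5.55 and 0.15 estimated counts in KO and at most 0.03 in any WT library. Of the 50-base words of Myl1, 21.3% also occur in the pseudogene Mylf-ps, which makes the split of those reads uncertain. Myl1 held 6.68% ± 0.145 of essential light chain RPKM in KO and 1.23% ± 0.0555 in WT (SD, n = 3 each).

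The embryonic heavy chain Myh3 and the perinatal heavy chain Myh8, both on chromosome 11, rose from a low level. Myh3 (67078300 to 67102291, plus strand) had 125, 48 and 56 counts in KO, against 22, 19 and 20 in WT, which is 3.73, 3.21 and 2.84 CPM in KO and 1.28, 1.49 and 1.14 CPM in WT. Its log2 fold change was 1.36 (SE 0.202), with an adjusted p of 0.000131 by edgeR. Myh8 (67277124 to 67308633, plus strand) had 275, 105 and 159 counts in KO, against 56, 63 and 75 in WT, which is 8.20, 7.03 and 8.05 CPM in KO and 3.25, 4.95 and 4.27 CPM in WT. Its log2 fold change was 0.93 (SE 0.148), with an adjusted p of 0.000223 by edgeR.

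Both calls were lost in the settings that bear on sex, which also give larger standard errors, and what part sex has in this was not tested. With the Y-linked level as a covariate, the log2 fold change was 1.02 for Myh3 with an adjusted p of 0.0524, and 0.58 for Myh8 with an adjusted p of 0.0869. Without the libraries of a single sex, they were 1.01 with an adjusted p of 0.0557 and 0.61 with an adjusted p of 0.0556 (edgeR). Together these chains held 0.0217% (Myh3) and 0.0501% (Myh8) of heavy chain RPKM in KO, against 0.00605% and 0.0188% in WT. Myh8 shares 21.4% of its 50-base words with other myosin genes, most of them with Myh2, and Myh3 shares 4.81%.

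The heavy and light chain pools as wholes were smaller in KO. Heavy chain RPKM summed to 997.6, 946.1 and 1067 in KO, against 1260, 1239 and 1386 in WT, with no overlap. The log2 difference was -0.37, with a 95% interval of -0.57 to -0.17 and an exact permutation p of 0.1. Light chain RPKM summed to 3057, 3156 and 3094 in KO, against 4244, 4277 and 4211 in WT, a log2 difference of -0.45 with a 95% interval of -0.49 to -0.41 and an exact permutation p of 0.1. With the libraries scaled by TMM factors instead of their totals, these differences were -0.52 and -0.60. The 10 genes held 2.03%, 2.13% and 2.21% of all gene counts in KO, against 3.01%, 2.89% and 3.08% in WT.

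Genes around the myosin filament did not move in a single direction. The counts of called genes in this and the later lists stand against 22.4% higher and 22.0% lower of all 14290 genes tested. Of 11 other myosin chain genes tested, 4 rose and none fell, and the median log2 fold change was 0.08. They include Myl9, a regulatory light chain of smooth muscle and nonmuscle myosin (807.9 ± 25.9 CPM in KO and 598.4 ± 34.5 in WT, log2 fold change 0.43, adjusted p 1.67e-05), and the nonmuscle heavy chain Myh10 (686.6 ± 59.3 CPM in KO and 497.3 ± 40.8 in WT, 0.47, adjusted p 0.000115). The fast skeletal regulatory chain Mylpf also rose, by 1.10 on the log2 scale with an adjusted p of 0.00186 by edgeR, at under 4 CPM in every library.

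Of 23 genes that modify or assemble myosin, 10 rose and 9 fell. The light chain kinase family gene Mylk4 stood at 19.2 ± 3.15 CPM in KO and 3.81 ± 0.520 in WT (log2 fold change 2.31, adjusted p 4.34e-08 by edgeR). Ppp1r12a, a targeting subunit of myosin phosphatase, rose by 0.32, and the M-band protein Myom2 by 0.92. Myosin binding protein C, Mybpc3, which sets the availability of myosin heads, fell to 2302 ± 93.0 CPM in KO, against 3474 ± 111 CPM in WT (-0.59, adjusted p 6.56e-07 by edgeR). Speg, a large muscle kinase, fell by 0.53.

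Of 31 genes tested from a list of regulators known for control of these isoforms, including the targeted receptors, 8 rose and 11 fell, and the median log2 fold change was -0.08. Tead1, which binds muscle CAT elements, stood at 465.5 ± 9.47 CPM in KO and 350.9 ± 9.01 in WT (log2 fold change 0.41, adjusted p 3.83e-06 by edgeR). Thra, the thyroid hormone receptor through which Myh6 is induced and Myh7 repressed after birth, fell by 0.29 with an adjusted p of 0.000118, at 122.4 ± 4.84 CPM in KO and 150.2 ± 4.91 in WT. The homeodomain protein Hopx fell to 88.3 ± 5.32 CPM in KO, against 199.2 ± 14.7 CPM in WT (-1.18, adjusted p 5.82e-09 by edgeR). The paralog Esrrb, which was not targeted, rose by 1.17 with an adjusted p of 4.62e-08.

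**Figure D5:**
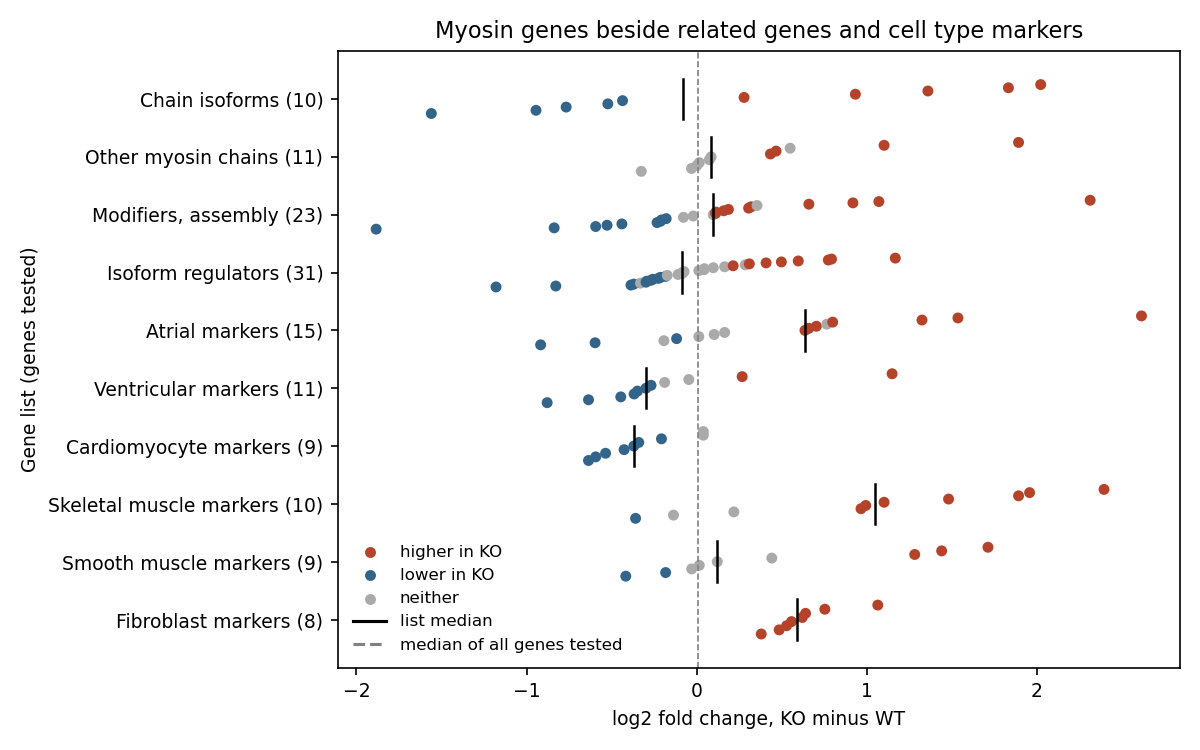
Log2 fold change, KO minus WT, of each tested gene of the chain isoforms and of related lists, coloured by its edgeR call, with the list median as a bar and the median of all genes as a dashed line. The isoforms split into 5 lower and 5 higher genes, atrial markers have 7 higher and 3 lower of 15, and all 8 fibroblast markers are higher in KO.

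Markers of other cells moved in the same libraries, and their part in the isoform results was not tested. Of 15 atrial markers, 7 rose and 3 fell, and their summed level was 3418 to 4078 CPM in KO and 2219 to 2322 CPM in WT, with none at 0. In the sum, that difference rests on Nppa. The other 14 markers summed to 1970 to 2062 CPM in KO and 1966 to 2026 CPM in WT. Most of this remainder was Pam, which fell, at 1504 ± 5.18 CPM in KO and 1632 ± 36.6 CPM in WT. The remainder therefore hides rises among less abundant markers. Nppa, the gene of atrial natriuretic peptide, which the fetal ventricle also makes, stood at 1706 ± 312 CPM in KO and 278.7 ± 22.4 in WT. Clu and Bmp10 rose by 1.32 and by 1.54 on the log2 scale, whereas the connexin Gja5, the potassium channel gene Kcna5 and Pam fell by 0.92, by 0.60 and by 0.12, the last losing its call in both settings that bear on sex, at adjusted p of 0.319 and 0.182 (edgeR). Sarcolipin, Sln, a marker named here after its values were seen, had 281, 29 and 72 counts in KO, against 83, 79 and 118 in WT, with an adjusted p of 0.696 by edgeR. KO replicate 1 was the highest library for Sln in raw counts and after scaling. It stood at 8.38 CPM, against 1.94 and 3.65 CPM in KO replicates 2 and 3 and 4.81 to 6.71 CPM in WT. Leaving out KO replicate 1 gave log2 fold changes of 1.79 for Myl7 and 0.23 for Myl4, both still called. Myl4 lost its call in the settings that bear on sex, and the part of atrial RNA in these rises was not tested.

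Of 11 ventricular markers, 2 rose and 7 fell, and of 9 cardiomyocyte markers none rose and 7 fell. The summed level of the cardiomyocyte markers was 93196 to 103720 CPM in KO and 113730 to 116580 CPM in WT. All 8 fibroblast markers rose, to a sum of 7355 to 8536 CPM in KO, against 5234 to 5528 CPM in WT. Smooth muscle markers had 3 of 9 higher and 2 lower, with a sum of 3663 to 3909 CPM in KO and 1879 to 1973 CPM in WT. Acta2 carried that difference in the sum. Without it the other 8 summed to 1001 to 1080 CPM in KO and 1070 to 1105 CPM in WT. Most of this remainder was Des and Myocd, which fell by 0.42 and by 0.18 on the log2 scale. The less abundant Tagln and Cnn1 rose by 1.44 and by 1.28, with adjusted p of 1.29e-05 and 1.35e-08 by edgeR. Conduction markers had 3 of 10 higher and 4 lower, endothelial markers 3 of 7 higher and 3 lower, and none of 7 erythroid markers was called.

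Of 20 skeletal muscle markers listed, 10 could be tested, and 7 of these rose and 1 fell. The summed level of the listed markers was 1384 to 1735 CPM in KO and 1831 to 2001 CPM in WT. Most of it came from Ckm, the muscle creatine kinase that the heart also expresses, which fell by 0.36. Without Ckm the other 17 markers with counts went the other way, at 154.3 to 182.3 CPM in KO and 106.6 to 127.7 CPM in WT. Neb, the gene of nebulin, was at 50.4 ± 9.24 CPM in KO and 24.9 ± 2.63 in WT. The fast troponin Tnnt3 had 373, 37 and 80 counts in KO, against 22, 19 and 17 in WT, so KO replicate 1 stood apart. The calls of Tnnt3 and Ckm were lost with the Y-linked covariate, at adjusted p of 0.301 and 0.152, and that of Tnnt3 also without the libraries of a single sex, at 0.0604 (edgeR). Myf5, a determination factor of skeletal muscle, was at 0 counts in every KO library and in WT replicates 1 and 3, with 1 count in WT replicate 2. Myogenin, Myog, a differentiation factor of skeletal muscle named here after its values were seen, had 21, 14 and 21 counts in KO, against 6, 2 and 2 in WT, and rose by 1.96 on the log2 scale with an adjusted p of 0.00333 by edgeR. Without KO replicate 1 the log2 fold changes were 2.07 for Myl1, 1.23 for Myh3 and 0.89 for Myh8, all still called. Myh3 and Myh8 lost their calls in the settings that bear on sex. Leaving out that library keeps KO replicates 2 and 3, with their 14 and 21 Myog counts. The part of skeletal muscle RNA in these rises was not tested.

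The genes most like 4 of the members across the 6 libraries were sought among 9790 genes with a mean of at least 10 CPM, by the root mean square difference of centred log2 CPM. For Myl2 these were Ndufb11 at 0.0193, Ndufa12 at 0.0266 and Ndufb2 at 0.0332, all accessory subunits of respiratory complex I. For Myh7 they were Ly6e, Ephx2 and Als2cl, at 0.0326 to 0.0406, and for Myh6 they were Zdhhc1, Manba and Tmem136, at 0.0317 to 0.0409. For Myl7 the nearest were Lacc1 at 0.0855, Acta2, the smooth muscle actin of the early heart, at 0.120, and Lgi2 at 0.125. This likeness includes the difference between the groups and describes these libraries.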

How the data were processed

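RNA-seq of 3 libraries labelled KO and 3 labelled WT was used, with groups taken from the sample labels. Total RNA was depleted of ribosomal RNA per the labels' protocols, a stranded total RNA kit was used (an mRNA kit of the same maker is also named) and 50 bp single-end reads were taken. The submitters' processing notes name DESeq, Partek 6.6, TopHat2 2.0 and the mm10 genome, with roles not given in the sources used here. The authors deposited estimated counts per transcript, which need not be whole, and RPKM, which from the values are those counts scaled by transcript length and reliable reads (within 0.1% for 100% of values). The authors' deposited p-value and false discovery rate columns are used where named, their fold column, with 2870 cells that hold no number, was not used, and the deposited percent of reads in exons, 37.6 to 40.6 in KO and 35.5 to 37.1 in WT, bears on RPKM between libraries. The deposited read counts per library were 39621555 to 86895519.

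Estimated counts were summed over 30031 transcripts to 19245 symbols and rounded; 94.5% of sums were within 0.01 of whole, and 58 transcripts with symbols turned into dates were restored from their accessions. The test was edgeR 4.0.16 in R 4.3.3 (quasi-likelihood, TMM, filterByExpr with minimum count 10 and total 15), two-sided, Benjamini-Hochberg over 14290 genes, threshold 0.05. CPM is TMM-scaled, except the Y-linked and Xist levels, which use raw totals. Ratios and sums of RPKM were tested by exact permutation in SciPy 1.17.1, and their intervals are 95% intervals on the log2 scale from the spread within groups. The edgeR step was tested on simulated data. Alternatives were other scalings, no filter, DESeq2 1.42.0, limma-voom (limma 3.58.1), robust dispersion, a replicate block, a Y-linked covariate, leaving out the libraries of a single sex, single transcripts and leaving out each library. Replicates pool different hearts, and limits from counts cover counting error only, since PCR copies were not told apart.

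The members, lists and rule for named genes were chosen with earlier results of these data known. The rule names all members, up to 3 higher and 3 lower genes by adjusted p from each of 5 lists (other chains, modifiers, regulators, atrial and skeletal markers) and the 3 genes most like Myh6, Myh7, Myl2 and Myl7; 1 gene that the rule takes is not reported here. Gene positions (mm10) were copied from the deposited table, less 1 base at the end. Word sharing, exon overlaps and the bounds and coding exons of the microRNA hosts used GENCODE M21 of GRCm38. Promoters and microRNA positions and sequences came from RefSeq (GRCm38.p6). Myod1 and Pax7 were not used here.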

Additional observations from a re-analysis of the deposited data

How the results depend on the processing

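Across 15 alternative settings, the calls of Myh6, Myh7, Myh7b, Myl1, Myl2, Myl3 and Myl7 kept their direction and side of the threshold, with log2 fold changes of -0.50 to -0.37, -0.60 to -0.38, -1.62 to -1.39, 1.99 to 2.07, -1.02 to -0.86, -0.80 to -0.63 and 1.57 to 1.94 in that order. Of all genes, 6348 were called in the reported fit and 5262 to 6472 in the other 13 settings. The exceptions were both settings that bear on sex. With the Y-linked level as a covariate, 3404 genes were called (1638 higher and 1766 lower), and 2 members remained higher with Myh3, Myh8 and Myl4 lost. In that setting 13 other myosin genes and regulators were lower, against 20 in the reported fit. Their lists had 11 (other chains), 23 (modifiers) and 31 (regulators) genes tested. Without the libraries of a single sex (KO replicate 1 and WT replicates 1 and 3), 3645 genes were called (1787 higher and 1858 lower) and the same 2 members remained higher; the lone WT library is there assumed to vary like the KO libraries. The Myh6 to Myh7 log2 difference changed sign, at -0.0796 without those libraries and at -0.0293 to 0.2094 with each library left out in turn; the cause was not tested. The summed heavy and light chain differences were -0.52 and -0.60 under TMM scaling, and the other scalings moved the median of all genes by -0.0032 (DESeq2 size factors) and 0.0045 (upper quartile). Replicate numbers were not taken to pair the samples. Deviations of same-numbered libraries correlated at -0.037, -0.018 and 0.149, and those of differently numbered libraries at -0.149 to 0.148. With 3 libraries per group, correlations this small cannot show whether the samples are paired. With a replicate block 6410 genes were called and all 10 members kept their call, while the paired ratios had a smallest possible exact sign-flip p of 0.25. Depth limits Myh3 and Myh8, with 19 to 275 counts per library.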

Other observations

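RNAs made within the heavy chain genes were near the limit of detection. The antisense RNA Mhrt, which lies opposite Myh7 and is known in mice as a regulator of cardiac chromatin, had 34, 7 and 13 counts in the libraries labelled KO, against 25, 27 and 20 in WT. Scaled for depth, Mhrt was at 1.01, 0.469 and 0.659 CPM in KO, against 1.45, 2.12 and 1.14 CPM in WT. Its log2 fold change was -0.97 (adjusted p 0.0253, edgeR), and this call was not looked up in the settings that bear on sex. Reads of the overlapping strand also cannot be told apart from it without the strand setting of the counting. The precursor of miR-208a had 6, 2 and 1 counts in KO, against 3, 1 and 0 in WT, and that of miR-208b had 4, 1 and 2 counts in KO, against 1, 1 and 1 in WT. These counts were too low to test, and libraries of long RNA do not measure mature microRNAs.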
